A study of Rattus norvegicus with 16 samples.

Results

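Meningeal fibroblasts are the connective tissue cells of the coverings of the brain, and 10 of their genes were followed in the rat hippocampus after iron was infused into the amygdala. The genes are the fibrillar collagens Col1a1, Col1a2 and Col3a1, the proteoglycans Lum (lumican) and Dcn (decorin), the matrix protein Mgp, the growth factor Igf2, the organic anion transporter Slc22a6, the protease inhibitor Serping1 and the matrix-associated signalling protein Ccn1. Each was found by the RefSeq accession of its probe, and where a gene had more than 1 probe the one with the highest mean signal over the 16 arrays was used. The 10 genes are 10 of the 26565 features tested, where a feature is a named gene or an unnamed transcript probe.

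RNA of the right hippocampus of 16 male Wistar rats was measured on 16 Agilent 1-colour arrays, 1 per rat and 4 per group. Fe day 5, Fe day 15 and Fe day 30 rats received 1.0 µl of 100 mM ferric chloride (FeCl3) in saline at pH 2.2 through a cannula in the right amygdala and were sampled at those days, and control rats received saline of the same pH and volume and were sampled at day 15 only. Cannulas were implanted in all rats at 5 weeks of age, so iron, age and the interval after infusion all differ between Fe day 5 or Fe day 30 rats and the controls. Per the series text, recurrent seizures were seen in Fe rats but their rate was not measured, and none were seen in controls.

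Fibroblasts of the meninges make collagen fibrils and the small proteoglycans that coat them, and they secrete growth factors into the cerebrospinal fluid. Type I collagen is built from the Col1a1 and Col1a2 chains and type III collagen from Col3a1. The hippocampus proper holds few such cells, which lie along vessels and in the pia, the inner layer of the meninges, while the choroid plexus, the tissue that makes cerebrospinal fluid, lies beside it and has a fibroblast-bearing stroma of its own.

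The 75th percentile of the processed signal lay between 553 and 924, and 74.2% to 81.6% of transcript spots were well above background, with 0 saturated spots. All 10 genes were well above background on all 16 arrays and passed the filter on low values. Signals are given as multiples of the 75th percentile of the same array, and log2 values are given as differences from the mean of the 4 control arrays. Each probe has its own brightness, so signals of different genes are not compared. Of 8 neuronal markers 7 were measured, with a summed signal of 56.2 to 65.9 in Fe day 5, 58.0 to 72.6 in Fe day 15, 47.1 to 73.9 in Fe day 30 and 66.4 to 79.5 in control arrays. Since this is bulk tissue, more cells of a type and more RNA per cell cannot be told apart in any of these values.

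Among the Fe arrays 3 stood apart. Over the 10 genes, the median log2 value was 4.21 on Fe day 5 replicate 2, 2.14 on Fe day 5 replicate 3 and 3.02 on Fe day 30 replicate 3. On the other 9 Fe arrays it lay between −0.14 and 1.36, and on the 4 control arrays between −0.08 and 0.05. On each of the 3 arrays all 10 genes lay above all 4 control arrays. The highest of the other 9 was Fe day 15 replicate 4 at 1.36, where all 10 genes also lay above all 4 control arrays. Log2 differences of the 10 genes and medians of the gene lists are therefore given with all arrays and without the 3, which were picked on the values of these same genes, so that values without them are a description. Counts that set single arrays, or all Fe arrays together, against the controls have no share over all features beside them. Such counts only describe the 10 genes.

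**Figure D1:**
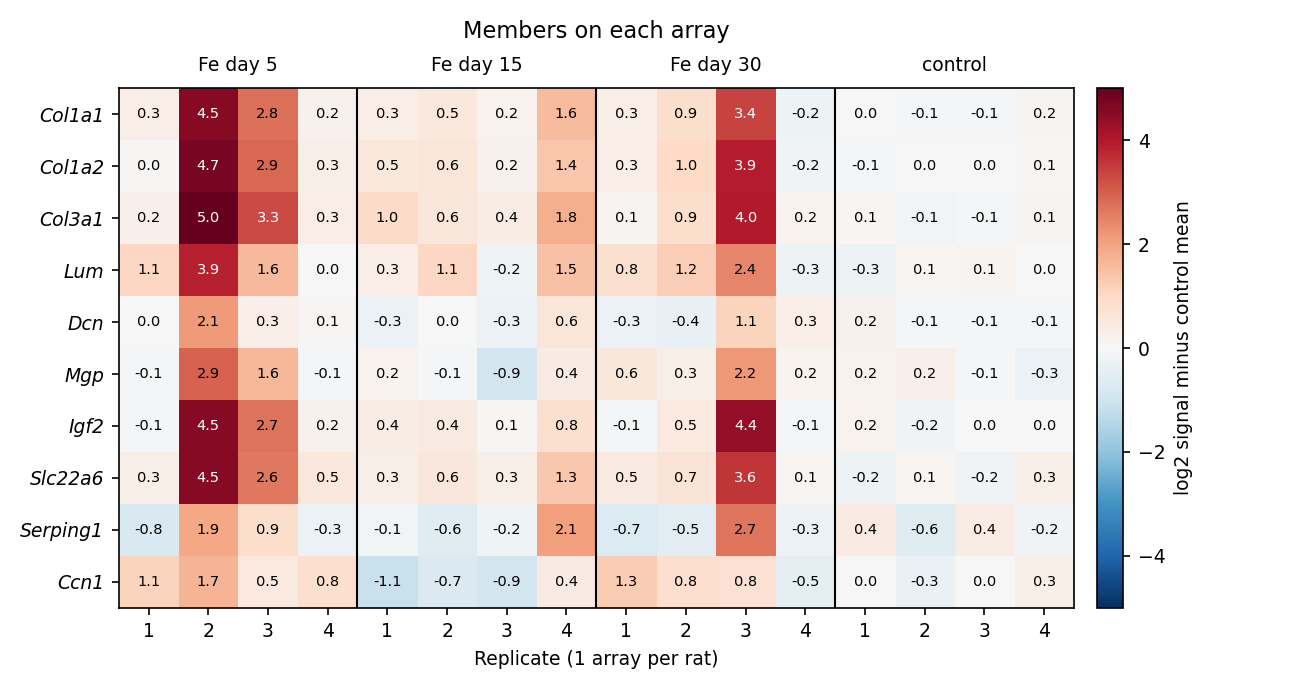
The log2 signal of each of the 10 genes (rows) on each array (columns, 4 replicates per group), as the difference from the control mean of that gene. The reddest columns are Fe day 5 replicate 2, Fe day 5 replicate 3 and Fe day 30 replicate 3, and the paler column of Fe day 15 replicate 4 is the next highest.

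For 7 of the 10 genes, these 3 arrays were also the 3 highest of the 16. Fe day 5 replicate 2 was the highest array for 9 genes and among the 3 highest for all 10. Fe day 30 replicate 3 was among the 3 highest for 9 genes and Fe day 5 replicate 3 for 7. These 7 genes stood highest in the same rats, which were 2 of 4 at day 5, 0 of 4 at day 15 and 1 of 4 at day 30. The 3 arrays were picked on the values of the 10 genes, so these counts follow in part from that choice. The exceptions to the 7 were Dcn, Serping1 and Ccn1. For Ccn1, Fe day 30 replicate 3 ranked 6 and Fe day 5 replicate 3 ranked 7 of the 16 arrays.

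RefSeq promoter sequences on the assembly GRCr8, from 250 bases before to 50 bases after the annotated start, were at hand for 4 of the 10 genes (5 sequences, 2 of them for Igf2). Those of Col1a2 (chr4:33518307-33518606, + strand), Lum (chr7:34245456-34245755, + strand) and Ccn1 (chr2:237225640-237225939, − strand) are shown because Col1a2 and Lum were high on the same 3 arrays while Ccn1 was ordered differently. Capitals mark each match to TATAAA or CCAAT on either strand (TTTATA and ATTGG on the reverse), and no matches overlapped.
Col1a2: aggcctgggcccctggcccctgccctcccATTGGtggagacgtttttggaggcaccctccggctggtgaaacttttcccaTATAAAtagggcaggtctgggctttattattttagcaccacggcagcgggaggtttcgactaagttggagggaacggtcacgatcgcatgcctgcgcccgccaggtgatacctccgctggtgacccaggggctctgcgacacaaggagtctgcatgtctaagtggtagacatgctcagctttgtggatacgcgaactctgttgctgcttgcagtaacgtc
Lum: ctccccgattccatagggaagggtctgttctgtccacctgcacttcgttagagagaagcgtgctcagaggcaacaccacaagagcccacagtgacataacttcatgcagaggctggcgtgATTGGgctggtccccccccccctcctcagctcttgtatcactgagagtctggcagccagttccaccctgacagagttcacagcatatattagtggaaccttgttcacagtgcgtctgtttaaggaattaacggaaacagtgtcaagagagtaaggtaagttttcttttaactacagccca
Ccn1: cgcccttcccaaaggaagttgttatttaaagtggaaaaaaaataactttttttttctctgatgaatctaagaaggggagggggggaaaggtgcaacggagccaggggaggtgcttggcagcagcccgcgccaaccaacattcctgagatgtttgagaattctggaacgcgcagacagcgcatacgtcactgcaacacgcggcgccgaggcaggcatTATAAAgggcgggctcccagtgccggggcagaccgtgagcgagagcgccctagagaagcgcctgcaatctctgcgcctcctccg
TATAAA was found 170 bases before the annotated start of Col1a2 and 34 bases before that of Ccn1. CCAAT was found on the reverse strand 221 bases before the start of Col1a2 and 130 bases before that of Lum. Igf2 was high on the same 3 arrays, and its 2 sequences, not shown, held no match to TATAAA or CCAAT. Of 33469 promoters of the same length, 14.2% held TATAAA and 37.5% held CCAAT on either strand. These matches are a description of letters in 1 window.

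Col3a1 had the largest fitted difference from control of the 10 genes at each time when all arrays were used. It had a signal of 0.257, 6.76, 2.16 and 0.274 in Fe day 5, 0.422, 0.325, 0.284 and 0.759 in Fe day 15, and 0.237, 0.399, 3.37 and 0.245 in Fe day 30 arrays, against 0.231, 0.195, 0.206 and 0.237 in control arrays. All 12 Fe arrays lay above all 4 control arrays, the nearest of them (Fe day 30 replicate 1) by a margin too small to show at these digits. The Fe day 5 values fall into a high and a low pair, and in Fe day 30 a single array carries the high value. Col3a1 stood at a log2 difference of 2.22 ± 0.98 (SE, n = 4 per group) at day 5, 0.94 ± 0.98 at day 15 and 1.29 ± 0.98 at day 30, with adjusted p-values of 0.48, 0.74 and 0.73 in limma. This SE, like those of the genes below, pools the spread of all 4 groups. The SD of Col3a1 was 2.32 in Fe day 5, 0.63 in Fe day 15, 1.81 in Fe day 30 and 0.13 in control arrays. The pooled SE is thus not the spread of the day 15 rats alone. With the 3 arrays left out Col3a1 stood at 0.29 ± 0.33, 0.94 ± 0.27 and 0.40 ± 0.29.

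Col1a1 had a signal of 1.04, 19.2, 5.57 and 0.940 in Fe day 5, 1.03, 1.18, 0.923 and 2.46 in Fe day 15, and 1.03, 1.53, 8.50 and 0.690 in Fe day 30 arrays, against 0.816, 0.787, 0.774 and 0.912 in control arrays. The Fe day 5 and Fe day 15 arrays all lay above the controls, as in 2.75% and 4.11% of features. Fe day 30 replicate 4 lay below all controls. Col1a2 had 1.28, 32.8, 9.17 and 1.50 in Fe day 5, 1.79, 1.87, 1.45 and 3.25 in Fe day 15, and 1.56, 2.47, 18.8 and 1.09 in Fe day 30 arrays, against 1.16, 1.23, 1.27 and 1.31 in control arrays. All Fe day 15 values of Col1a2 lay above the controls, as in 4.11% of features. Its groups overlapped at days 5 and 30. The log2 differences of Col1a1 were 1.96 ± 0.88, 0.65 ± 0.88 and 1.09 ± 0.88 at days 5, 15 and 30, and those of Col1a2 were 1.99 ± 0.96, 0.69 ± 0.96 and 1.27 ± 0.96 (SE, n = 4 per group), with limma's adjusted p between 0.48 and 0.82. Leaving out the 3 arrays put Col1a1 at 0.27 ± 0.36, 0.65 ± 0.30 and 0.33 ± 0.32 and Col1a2 at 0.16 ± 0.32, 0.69 ± 0.26 and 0.38 ± 0.28.

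On the probes used, the 2 chains of type I collagen kept close to each other from rat to rat. The log2 values of Col1a1 and Col1a2 differed by a median of 0.10 over the 16 arrays and by at most 0.55, on Fe day 30 replicate 3. Col1a2 and Col3a1, chains of different fibrils, differed by a median of 0.18 and at most 0.43. A second probe of Col1a2 gave 2.16, 0.86 and 1.37 at days 5, 15 and 30, close to the first. A second probe of Col1a1 gave smaller differences of 1.04, 0.16 and 0.49, in the same direction. Its log2 values were −0.01, 3.07, 1.33 and −0.21 in Fe day 5 and −0.17, 0.03, 0.08 and 0.70 in Fe day 15 arrays. Control replicate 4 stood at 0.17 on that probe, so both groups overlapped the controls there. It had 3.07 on Fe day 5 replicate 2 and 2.00 on Fe day 30 replicate 3, where Col1a2 had 4.73 and 3.93. The 2 chains were thus less close with the second probe of Col1a1.

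Lum and Dcn, which bind collagen fibrils and space them, are neighbouring genes on chromosome 7 of GRCr8 but did not move to the same extent. Lum had a signal of 0.138, 0.985, 0.207 and 0.0675 in Fe day 5, 0.0834, 0.138, 0.0570 and 0.182 in Fe day 15, and 0.117, 0.158, 0.361 and 0.0552 in Fe day 30 arrays, against 0.0557, 0.0719, 0.0734 and 0.0668 in control arrays. In each Fe group 3 of 4 arrays lay above all controls, so Lum was high in more rats than the 3 that stood apart. Dcn had 1.52, 6.45, 1.88 and 1.55 in Fe day 5, 1.22, 1.50, 1.22 and 2.30 in Fe day 15, and 1.21, 1.14, 3.27 and 1.89 in Fe day 30 arrays, against 1.73, 1.39, 1.44 and 1.44 in control arrays. Dcn overlapped the controls at every time, and its highest arrays were Fe day 5 replicate 2, Fe day 30 replicate 3 and Fe day 15 replicate 4.

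Lum stood at 1.65 ± 0.69, 0.65 ± 0.69 and 1.06 ± 0.69 on the log2 scale at days 5, 15 and 30, and Dcn at 0.63 ± 0.43, 0.01 ± 0.43 and 0.20 ± 0.43 (SE, n = 4 per group). In limma the adjusted p was 0.47, 0.75 and 0.69 for Lum and 0.58, 1.00 and 0.91 for Dcn. The log2 value of Lum exceeded that of Dcn by up to 1.77, on Fe day 5 replicate 2, and lay below it by up to 0.61, on Fe day 30 replicate 4. Without the 3 arrays Lum stood at 0.54 ± 0.49, 0.65 ± 0.40 and 0.60 ± 0.43 and Dcn at 0.04 ± 0.26, 0.01 ± 0.21 and −0.11 ± 0.23.

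Mgp, matrix Gla protein, keeps soft tissue and vessel walls from calcifying. It had a signal of 2.00, 15.98, 6.53 and 1.94 in Fe day 5, 2.37, 1.93, 1.11 and 2.75 in Fe day 15, and 3.09, 2.56, 9.49 and 2.34 in Fe day 30 arrays, against 2.33, 2.45, 1.94 and 1.70 in control arrays. The groups overlapped at each time, and Fe day 15 replicate 3 was the lowest of the 16 arrays. The log2 differences were 1.10 ± 0.60, −0.11 ± 0.60 and 0.80 ± 0.60 (SE, n = 4 per group), with limma's adjusted p at 0.51, 0.96 and 0.72. They were −0.08 ± 0.30, −0.11 ± 0.24 and 0.34 ± 0.26 without the 3 arrays, so the day 5 value changed sign.

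Igf2, insulin-like growth factor 2, is a growth factor that in the adult rodent brain comes mostly from the meninges and choroid plexus. Its signal was 3.74, 92.9, 26.4 and 4.63 in Fe day 5, 5.23, 5.48, 4.20 and 7.02 in Fe day 15, and 3.86, 5.68, 83.6 and 3.78 in Fe day 30 arrays, against 4.58, 3.59, 3.99 and 3.96 in control arrays. The 3 arrays that stood apart were far above the rest, and the other 9 Fe arrays lay between 3.74 and 7.02, against 3.59 to 4.58 in the controls. The log2 differences were 1.84 ± 1.0, 0.42 ± 1.0 and 1.18 ± 1.0 at days 5, 15 and 30 (SE, n = 4 per group; adjusted p 0.51, 0.90 and 0.75 in limma), and without the 3 arrays 0.05 ± 0.21, 0.42 ± 0.17 and 0.12 ± 0.18. Igf2 and Col1a1 differed by a median of 0.14 in log2 value over the 16 arrays, but on Fe day 30 replicate 3 Igf2 was 1.01 higher.

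Slc22a6, known as OAT1 from the kidney, moves organic anions across cell membranes and is also found in the meninges. Its signal was 0.0222, 0.427, 0.114 and 0.0261 in Fe day 5, 0.0221, 0.0273, 0.0222 and 0.0462 in Fe day 15, and 0.0250, 0.0287, 0.218 and 0.0194 in Fe day 30 arrays, against 0.0154, 0.0195, 0.0163 and 0.0226 in control arrays. The same 3 arrays were the highest, and each Fe group overlapped the controls. The log2 differences were 2.00 ± 0.86, 0.62 ± 0.86 and 1.19 ± 0.86 (SE, n = 4 per group), with limma's adjusted p at 0.47, 0.82 and 0.71. On the remaining 13 arrays they were 0.40 ± 0.28, 0.62 ± 0.23 and 0.40 ± 0.25.

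Serping1, the C1 inhibitor, blocks the first proteases of the classical complement pathway and plasma kallikrein. Its signal was 2.02, 13.2, 6.45 and 2.79 in Fe day 5, 3.16, 2.29, 3.01 and 14.4 in Fe day 15, and 2.17, 2.38, 22.0 and 2.84 in Fe day 30 arrays, against 4.58, 2.28, 4.52 and 3.05 in control arrays. Its order of arrays differed from that of the collagens: Fe day 30 replicate 3 was highest, then Fe day 15 replicate 4, then Fe day 5 replicate 2, and the remaining Fe arrays lay within or below the controls, except Fe day 5 replicate 3. The log2 differences were 0.44 ± 0.78, 0.28 ± 0.78 and 0.29 ± 0.78 (SE, n = 4 per group), with limma's adjusted p at 0.86, 0.92 and 0.93. With the 3 arrays left out they were −0.54 ± 0.59 at day 5 and −0.50 ± 0.52 at day 30, below the control mean, and 0.28 ± 0.49 at day 15.

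Ccn1, also named Cyr61, is a secreted protein that binds integrins in the matrix and is switched on quickly in many cell types by growth factors, stretch and injury. Its signal was 0.131, 0.193, 0.0850 and 0.106 in Fe day 5, 0.0280, 0.0365, 0.0320 and 0.0787 in Fe day 15, and 0.146, 0.107, 0.103 and 0.0432 in Fe day 30 arrays, against 0.0603, 0.0479, 0.0608 and 0.0734 in control arrays. Ccn1 had the smallest spread of the 10 genes within Fe day 5, with an SD of 0.50 on the log2 scale, where the others had 1.00 to 2.32. All 4 Fe day 5 arrays lay above all controls, as in 2.75% of features. Of the Fe day 15 arrays 3 of 4 lay below all controls, and of the Fe day 30 arrays 3 of 4 lay above them all. All 4 Fe day 15 arrays lay below all 4 Fe day 5 arrays, as did 1.64% of all features.

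The log2 differences of Ccn1 from control were 1.04 ± 0.38 at day 5, −0.58 ± 0.38 at day 15 and 0.60 ± 0.38 at day 30 (SE, n = 4 per group; adjusted p 0.47, 0.56 and 0.68 in limma). Between Fe groups it stood at −1.62 ± 0.38 for day 15 against day 5 (adjusted p 0.27) and 1.19 ± 0.38 for day 30 against day 15 (adjusted p 0.65). Neither passed the threshold. Without the 3 arrays the differences from control were 0.98 ± 0.47, −0.58 ± 0.38 and 0.55 ± 0.41. With the slide as a block they were smaller at days 5 and 30, at 0.37 ± 0.36 and 0.32 ± 0.34, and −0.76 ± 0.31 at day 15. A second, dimmer probe gave 0.46, −0.26 and 0.39, the same signs at a smaller size. Its log2 values in Fe day 5 arrays were 0.35, 0.92, 0.07 and 0.50, with control replicate 4 at 0.83, so Fe day 5 overlapped the controls. On that probe Fe day 15 replicate 4, at 0.32, lay above Fe day 5 replicate 3, so these 2 Fe groups overlapped as well.

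**Figure D2:**
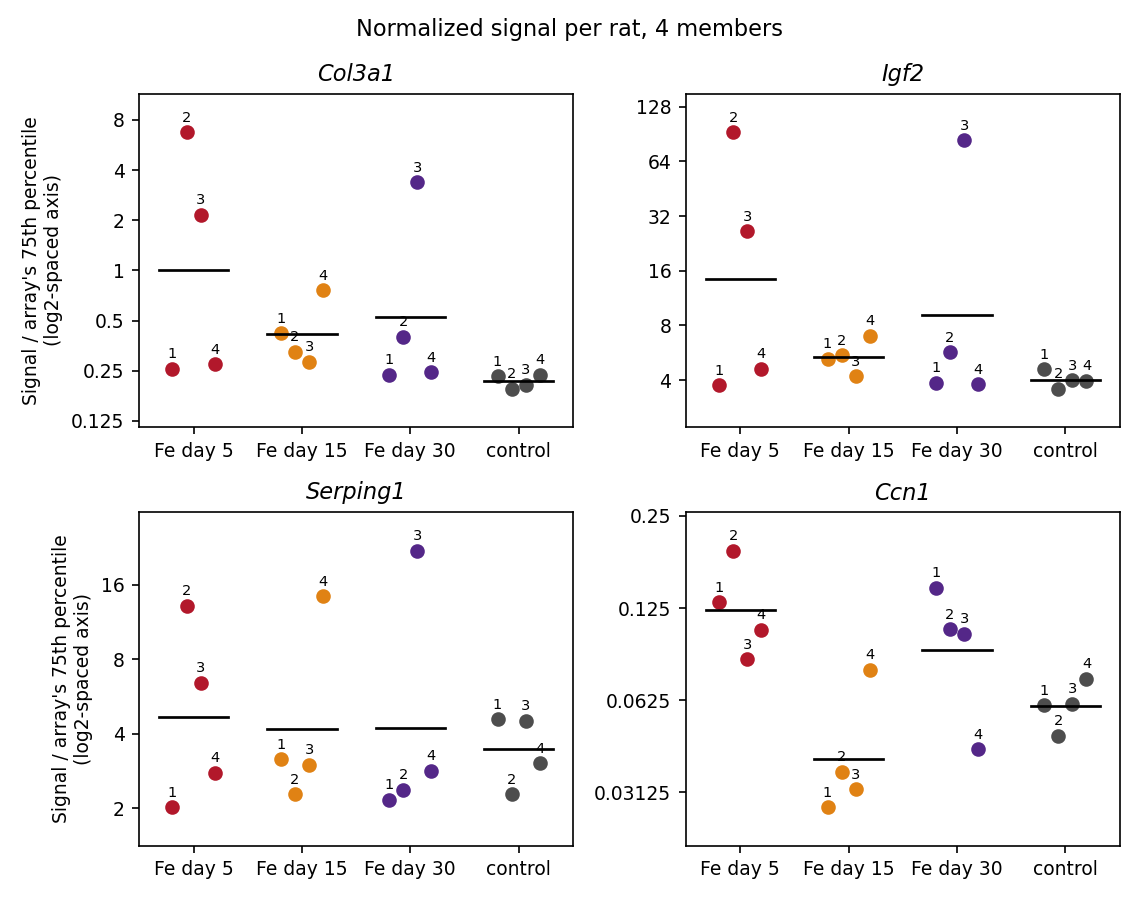
Signal of Col3a1, Igf2, Serping1 and Ccn1 on each array, as a multiple of the 75th percentile of that array on a log2-spaced axis, with the replicate number above each point and a line at the geometric mean of each group (n = 4). Col3a1 and Igf2 are carried by Fe day 5 replicates 2 and 3 and Fe day 30 replicate 3, and Serping1 by Fe day 15 replicate 4 as well. On the probe shown, the Fe day 5 points of Ccn1 lie together above the controls, as in 2.75% of features. On a second probe of Ccn1 they overlapped the controls.

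Day 5 stands for the acute phase in the series text. All 10 genes had a higher mean in Fe day 5, as did 45.8% of all features, and the median log2 difference was 1.74 (0.44 to 2.22), beside −0.02 over all features. limma called 0 of the 10 at an adjusted p under 0.05 and 0 of 26565 features (0.00%), with 2746 features (10.3%) at an unadjusted p under 0.05. Of the 10 genes, 5 were at an unadjusted p under 0.05, all of them higher, which 4.06% of features were: Ccn1, Lum, Slc22a6, Col3a1 and Col1a1. In Col1a1, Col3a1 and Ccn1 all 4 Fe values lay above all 4 control values, as in 2.75% of features. The second probes of Col1a1 and Ccn1 did not show this. The 10 genes were chosen with earlier results of these data known, and most of them were highest on the same arrays. Their counts are thus neither unselected nor independent of each other. Here and at the later days, the shares of all features stand beside these counts as a description, and the counts are not tested against them. Without the 3 arrays the median was 0.21 with 8 genes higher and 2 lower, and without Fe day 5 replicate 2 alone it was 0.92.

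At day 15 the Fe rats and the controls had the same interval after infusion. The median log2 difference was 0.52 (−0.58 to 0.94), beside 0.00 over all features, with 8 genes higher (50.3% of all features were) and Ccn1 and Mgp lower. limma called 0 of the 10 and 0 of 26565 features (0.00%). At an unadjusted p under 0.05 there were 0 of the 10 and 3055 features (11.5%). The 3 arrays hold no day 15 rat, so leaving them out keeps these differences and changes only the SE. In that fit 5 of the 10 were at an unadjusted p under 0.05 (Col3a1, Slc22a6, Col1a2, Igf2 and Col1a1), as were 3996 features (15.0%), and limma called 0 of the 10, with a lowest adjusted p of 0.18 for Col3a1. The 3 arrays were picked because these same genes were high there, and that choice by itself lowers their SE. The 5 of 10 are therefore not read against the share of 15.0%. In Col1a1, Col1a2 and Col3a1 all 4 Fe values lay above all 4 control values, as in 4.11% of features. The second probe of Col1a2 showed this too, and that of Col1a1 did not. Without Fe day 15 replicate 4 the median was 0.32.

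Day 30 stands for the chronic phase. All 10 genes had a higher mean in Fe day 30, as did 46.6% of all features, and the median log2 difference was 1.07 (0.20 to 1.29), beside −0.01 over all features. limma called 0 of the 10 and 2 of 26565 features (0.00753%), both of them lower in Fe day 30 and both probes without a gene symbol (A_44_P226284 at −1.31 ± 0.16 and A_44_P242546 at −0.76 ± 0.10). At an unadjusted p under 0.05 there were 0 of the 10 and 2065 features (7.77%). Col3a1 alone among the 10 had all 4 Fe values above all 4 control values, as did 2.62% of features. Without the 3 arrays the median was 0.36, with 8 genes higher and 2 lower.

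**Figure D3:**
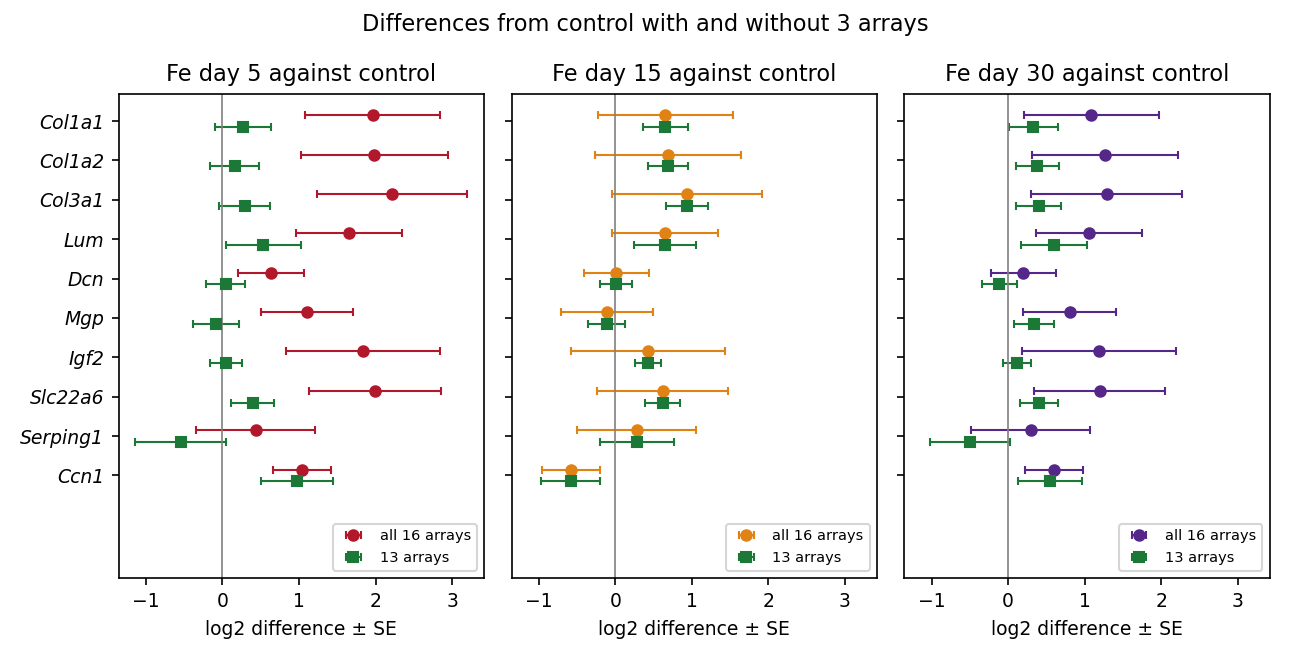
Fitted log2 difference ± SE of each gene for each Fe day against control, from all 16 arrays (circles) and from the 13 arrays left without Fe day 5 replicates 2 and 3 and Fe day 30 replicate 3 (green squares). At day 5 the collagens, Igf2 and Slc22a6 stand between 1.84 and 2.22 with all arrays and between 0.05 and 0.40 without the 3, while Ccn1 stands at 1.04 and 0.98.

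Replicates differed more from each other in the Fe groups than in the controls. Within the controls the SD of the 10 genes lay between 0.07 and 0.49 on the log2 scale, against 0.50 to 2.32 in Fe day 5, 0.30 to 1.20 in Fe day 15 and 0.70 to 2.15 in Fe day 30. Between Fe groups the median difference of the 10 genes was −1.29 for day 15 against day 5, 0.50 for day 30 against day 15 and −0.62 for day 30 against day 5. limma called 0 of the 10 and 0 of all features (0.00%) in each of these, and at an unadjusted p under 0.05 there was 1 of the 10 (Ccn1) in each of the first 2 (7.20% and 6.49% of features) and 0 in the last (2.96%). Leaving out the 3 arrays made these medians 0.30, −0.26 and 0.06, each of the opposite sign. The F-test over the 4 groups called 0 of the 10 and 0 features (0.00%), with Ccn1 alone of the 10 at an unadjusted p under 0.05 (8.34% of features).

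Slides held from 2 to 3 arrays each, and 6 Fe arrays shared a slide with a control. Against that control, the median log2 difference of the 10 genes was 0.22 for Fe day 5 replicate 4, 0.30, 0.51 and −0.02 for Fe day 15 replicates 1, 2 and 3, and 3.35 and −0.12 for Fe day 30 replicates 3 and 4. The high values of Fe day 30 replicate 3 were therefore as large within its slide. Ccn1 was below the control of its slide by a log2 difference of −0.78, −0.74 and −1.20 in these 3 Fe day 15 arrays. Fe day 5 replicates 2 and 3 shared no slide with a control. With the slide as a block the 10 genes stood between 0.20 and 1.95 at day 5, −0.76 and 0.84 at day 15 and 0.07 and 0.61 at day 30. The day 30 differences were smaller in that fit for all 10 genes, with Col3a1 at 0.51 ± 1.3 and Col1a1 at 0.28 ± 1.1 (SE).

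Markers of other tissues that a hippocampal dissection can include stood high on some of the same arrays. For the choroid plexus epithelium 8 of 16 markers were measured, and their summed signal ran from 1.00 to 29.7 in Fe day 5, 0.583 to 2.57 in Fe day 15 and 0.623 to 293 in Fe day 30, against 0.587 to 1.51 in control arrays. Kcnj13 and Clic6 were not well above background on some control arrays. The median log2 value of the 8 measured markers was 7.13 on Fe day 30 replicate 3, 3.59 on Fe day 5 replicate 3 and 1.77 on Fe day 5 replicate 2. The order was thus not that of the collagens, which were highest on Fe day 5 replicate 2. Ttr (transthyretin), the most abundant choroid plexus product, stood at 9.16, 5.98 and 1.76 on these 3 arrays.

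Of the measured markers on the meningeal list, 2 were not among the 10 genes. The list was chosen with earlier results of these data known, so these 2 are not an independent check. Slc6a13, a GABA and taurine transporter of the leptomeninges, stood at 4.37, 2.41 and 3.13 on Fe day 5 replicates 2 and 3 and Fe day 30 replicate 3, and Pdgfra, which fibroblasts share with oligodendrocyte precursors, at 0.88, 0.30 and 0.45. The transcription factor Foxc1 and the retinoic acid enzyme Aldh1a2 were not among the features tested. Blood cell markers (6 of 8 measured) had medians of 2.00 on Fe day 5 replicate 2, 1.82 on Fe day 30 replicate 3 and 1.55 on Fe day 15 replicate 4, but also 1.45 on Fe day 5 replicate 4, where the median of the 10 genes was 0.20. Their summed signal ran from 1.41 to 4.41 in Fe day 5, 1.47 to 4.21 in Fe day 15 and 1.05 to 4.92 in Fe day 30, against 1.22 to 1.66 in control arrays.

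Microglia and macrophage markers (10 of 10 measured) had medians of 0.92 on Fe day 30 replicate 3 and 0.78 on Fe day 15 replicate 4, the arrays on which Serping1 was highest, and between −0.36 and 0.27 on the other Fe arrays. Pericyte and smooth muscle markers (7 of 10 measured) reached 0.90 on Fe day 5 replicate 2, and ependymal markers (4 of 7 measured) 1.61 on Fe day 30 replicate 3. Endothelial markers (11 of 11 measured) lay between −0.09 and 0.50 on Fe arrays and astrocyte markers (8 of 8 measured) between −0.14 and 0.22. Neuronal markers had their lowest medians on Fe day 15 replicate 4 (−1.01) and Fe day 5 replicate 2 (−0.95). The part of these cell types in the values of the 10 genes was not tested.

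**Figure D4:**
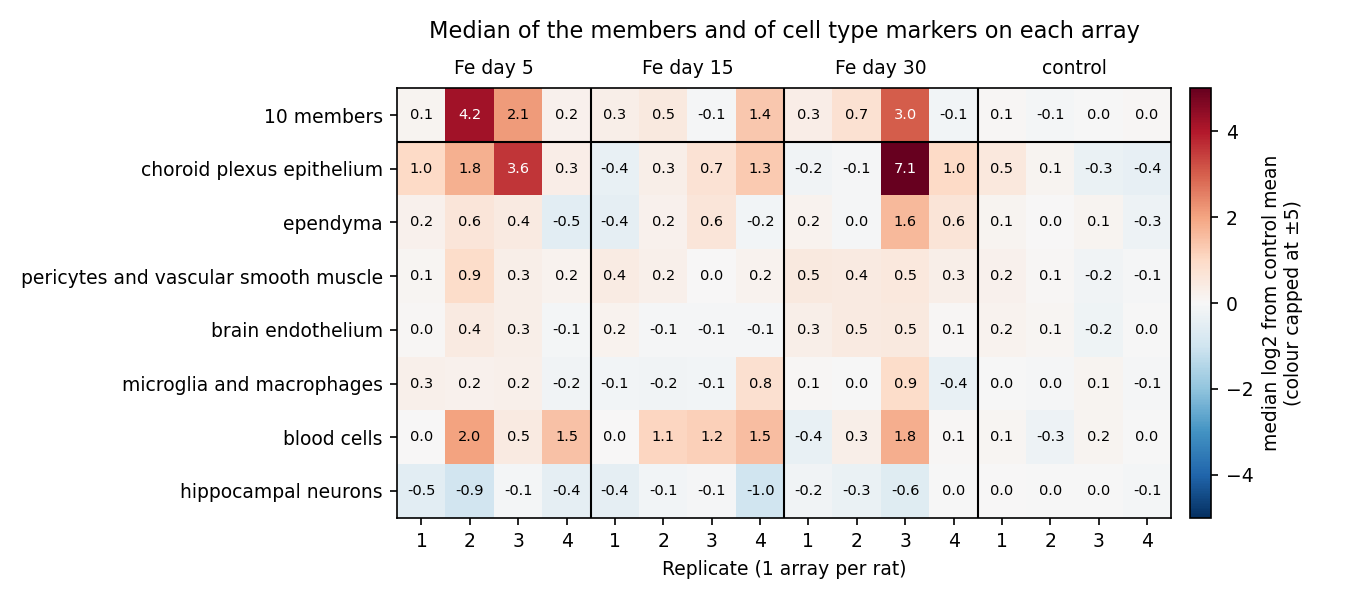
Median log2 difference from the control mean of the 10 genes (top row) and of 7 lists of cell type markers on each array. Choroid plexus markers are highest on Fe day 30 replicate 3 (7.13) and Fe day 5 replicate 3 (3.59), the 10 genes on Fe day 5 replicate 2 (4.21).

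Other genes of the same tissues and pathways were taken from 8 lists that leave out the 10 genes, and limma called 0 of them at any time. From 0 to 4 genes of a list were at an unadjusted p under 0.05, beside 10.3%, 11.5% and 7.77% of all features at days 5, 15 and 30. Of all features, 45.8%, 50.3% and 46.6% had a higher mean at those days, with medians of −0.02, 0.00 and −0.01. These values stand beside the counts and medians of all 8 lists. The lists were chosen with earlier results of these data known, so their counts are not an independent check. Of 19 measured genes of meninges and fibroblasts, 19, 13 and 19 had a higher mean at days 5, 15 and 30, with median log2 differences of 0.94, 0.15 and 0.70. Igfbp2, a carrier of insulin-like growth factors, stood at 2.33 ± 1.2 at day 5 and Crabp2, a retinoic acid carrier, at 1.64 ± 0.80 (SE, n = 4 per group). Without the 3 arrays the list medians were 0.02, 0.15 and 0.18, Igfbp2 stood at 0.27 ± 0.28 and Crabp2 at 0.09 ± 0.11 at day 5.

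Of 12 collagens and enzymes that process collagen, 10 were higher at each time, with medians of 0.34, 0.21 and 0.33. Pcolce, which speeds the trimming of procollagen, stood at 1.69 ± 0.83 at day 5, and Col8a1, a short-chain collagen of basement membranes, at 2.24 ± 1.3 at day 5 and 2.36 ± 1.3 at day 30, where Fe day 30 replicate 3 alone had 7.35. Plod2 (a lysyl hydroxylase for collagen cross-links) stood at 0.95 ± 0.30 at day 5 and P4ha1 (a prolyl hydroxylase) at 0.56 ± 0.14 at day 15, with limma's adjusted p at 0.47 and 0.19. P4ha1 was not highest where the collagens were: Fe day 15 replicates 2 and 3 had 0.78 and 0.83, and Fe day 5 replicate 2 had 0.22. The list medians became 0.07, 0.21 and 0.05 without the 3 arrays. Pcolce then stood at 0.21 ± 0.24 and Plod2 at 0.72 ± 0.23 at day 5, and Col8a1 at 0.71 ± 0.54 at day 5 and 0.70 ± 0.48 at day 30.

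The relatives of Lum and Dcn, the small leucine-rich proteoglycans, numbered 6 measured genes, of which 6, 5 and 6 were higher at days 5, 15 and 30 (medians 1.34, 0.21 and 0.69). Ogn (osteoglycin) stood at 2.10 ± 0.92 and Aspn (asporin) at 1.46 ± 0.47 at day 5, while Bgn (biglycan) stood at 0.69 ± 0.42. On the remaining 13 arrays the list medians were −0.01, 0.21 and 0.03, and at day 5 Ogn stood at 0.28 ± 0.39, Aspn at 0.50 ± 0.33 and Bgn at −0.02 ± 0.17. Of 16 matrix glycoproteins and matrix-remodelling genes, 15, 10 and 14 were higher (medians 0.60, 0.17 and 0.35). Postn (periostin) stood at 1.52 ± 0.60 at day 5, though it was well above background on 1 of 4 control arrays, Fbln5 (fibulin 5, of elastic fibres) at 1.41 ± 0.46 and Fn1 (fibronectin) at 0.87 ± 0.46. The medians of these 16 genes were 0.07, 0.17 and 0.06 without the 3 arrays, and at day 5 Postn stood at 1.06 ± 0.76, Fbln5 at 0.76 ± 0.23 and Fn1 at 0.05 ± 0.24.

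Of 11 genes of the insulin-like growth factor axis besides Igf2, 9 were higher at each time (medians 0.26, 0.19 and 0.21). The binding proteins Igfbp6 and Igfbp5 stood at 1.16 ± 0.46 and 0.88 ± 0.31 at day 5 (SE, n = 4 per group). The list medians became 0.24, 0.19 and 0.10 with the 3 arrays left out, with Igfbp6 at 0.77 ± 0.36 and Igfbp5 at 0.78 ± 0.31. Of 15 genes of the TGF-beta and CCN axis, 11, 10 and 12 were higher (medians 0.25, 0.22 and 0.37, and without the 3 arrays 0.12, 0.22 and 0.09). Ccn2 (connective tissue growth factor), a relative of Ccn1 that TGF-beta switches on, stood at 0.89 ± 0.43, 0.47 ± 0.43 and 0.18 ± 0.43 at days 5, 15 and 30, so that it was not below control at day 15 where Ccn1 was. Leaving out the 3 arrays put Ccn2 at 0.47 ± 0.28 at day 5 and −0.26 ± 0.25 at day 30. Tgfbr1, a TGF-beta receptor, stood at −0.44 ± 0.13 at day 15 (adjusted p 0.27 in limma), with all 4 Fe values below the controls, as in 5.73% of features.

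Of 12 genes of the complement and contact pathways that Serping1 restrains or that act beside them, 7, 9 and 9 were higher (medians 0.22, 0.24 and 0.18). These medians were −0.06, 0.24 and −0.14 without the 3 arrays, of the opposite sign at days 5 and 30. C4a, a complement component cleaved by C1s, stood at 0.54 ± 0.64 at day 5 and had 2.00, 1.58 and 2.27 on Fe day 5 replicate 2, Fe day 15 replicate 4 and Fe day 30 replicate 3, the 3 highest arrays of Serping1. C1qa, a subunit of C1q made by microglia, had 1.20 on Fe day 15 replicate 4 and 0.89 on Fe day 30 replicate 3. F12, the contact factor XII, stood at −1.02 ± 0.42 at day 5. On the remaining 13 arrays C4a stood at −0.45 ± 0.42 and F12 at −0.83 ± 0.41 at day 5. Of 8 organic ion transporters besides Slc22a6, 5, 5 and 8 were higher (medians 0.23, 0.04 and 0.27), and without the 3 arrays the medians were −0.07, 0.04 and 0.16. Slc22a8 (OAT3), the neighbour of Slc22a6 on chromosome 1 of GRCr8, stood at 0.67 ± 0.48, 0.15 ± 0.48 and 0.97 ± 0.48 at days 5, 15 and 30. It stood at −0.06 ± 0.24 at day 5 and 0.49 ± 0.21 at day 30 without the 3 arrays.

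Among 9578 other named genes, the 8 whose log2 values over the 16 arrays lay nearest to the median of the 10 genes were Pcolce, Ifitm1, Slc6a13, Crabp2, Anxa2, Asgr1, Nupr1 and Ptgds. The root mean square distance was 0.20 for Pcolce and 0.40 for Ptgds, against 1.50 for a typical gene. The 10 genes themselves lay between 0.23 (Col1a1) and 1.16 (Ccn1), with Dcn at 0.95 and Serping1 at 0.91. Over the 13 arrays left without the 3, Pcolce was again the nearest gene, and Ifitm1 ranked 15 and Anxa2 35. Crabp2 ranked 244, Asgr1 266, Slc6a13 292, Nupr1 518 and Ptgds 723.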

How the data were processed

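The deposited values are spot intensities of 16 Agilent arrays, background-subtracted and spatially detrended by the scanner software (Agilent Feature Extraction 9.5) per the file headers and the submitters' processing notes. No scaling between arrays by the authors was found, and the deposited series table held the same intensities. The log2 of the processed signal minus the 75th percentile of each array was computed here from the deposited files. Control spots and outlier spots were left out (122 probes were lost to this), and 30548 probes were kept because all 4 arrays of some group marked them as well above background. Probes were named through RefSeq accessions on GRCr8, used for names and neighbouring genes only (15184 of 20378 probes with an accession matched), and the brightest probe of each gene or unnamed transcript was kept, which left 26565 features.

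limma 3.58.1 in R 4.3.3 fitted the 4 groups in a one-way model with 12 residual degrees of freedom, in which the groups share an estimate of the spread. Tests were two-sided, with Benjamini-Hochberg adjustment over all features within a comparison and a threshold of 0.05, and the script was tested on simulated data. Alternatives were background correction with normexp (offset 50, on median spot signals, since the mean signal column named in the plan was not in the files used here), scaling, probe filters, the mean of all probes, slide and replicate blocks, array weights, 2-group fits and leaving out each array. The 10 genes and all gene and marker lists were chosen with earlier results of these data known. All 10 genes were named. From each related list at most 6 genes with the largest differences or lowest p were eligible to be named. Leaving out the 3 high arrays was chosen after seeing the data. The number of arrays limits the precision. Rats are the replicates. In the main fit each p-value sets a difference of group means against a spread between rats estimated over the 4 groups together. Replicate numbers did not pair the samples: deviations from group means of same-numbered arrays correlated between −0.41 and 0.39, and 5 of 24 pairs exceeded 0.1.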

Additional observations from a re-analysis of the deposited data

Results flagged for a closer look

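Dixon's test for 1 value far from the rest of its group was run on 40 sets of 4 arrays, 10 genes in each of 4 groups, and marked 5 of them. Chance marks about 1 in 20 independent sets, but these sets share 16 arrays and the genes moved together, so the number of marks is not read against that rate. Of the 5 marks, 4 lie on arrays already singled out as high in these genes. Fe day 30 replicate 3 was marked for Igf2 at 4.38, for Slc22a6 at 3.58 and for Serping1 at 2.67 (log2 difference from the control mean), each far above the other 3 rats of its group. Fe day 5 replicate 2 was marked for Dcn at 2.11. Control replicate 1 was marked for Dcn at 0.21, in a group whose whole range for that gene was narrow. The collagens were not marked at day 5, where 2 of 4 arrays were high and the test looks for 1.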

How the results depend on the processing

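None of the 10 genes passed an adjusted p of 0.05 in any of the 6 comparisons or the F-test under any alternative that was run. The lowest adjusted p among them was 0.069, for Ccn1 at day 15 against day 5 without Fe day 15 replicate 4. The median log2 difference of the 10 genes from control stayed above 0 throughout, at 0.21 to 2.29 for day 5, 0.30 to 0.64 for day 15 and 0.30 to 1.52 for day 30, and with the slide as a block it was 1.27, 0.40 and 0.30. A fit with the replicate number as a block left these medians at 1.74, 0.52 and 1.07, and it called 1 feature at day 15 and changed no call of the 10 genes. All 10 genes were well above background on all 16 arrays, and the number of arrays limits the precision of every value.

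Over all features, calls at day 5 were 1 without the probe filter. At day 15 they were 1 without the filter, 184 with array weights, 2 in the 2-group fit, 1 without the 3 high arrays and 0 to 10 when each array was left out in turn (10 without Fe day 15 replicate 4). At day 30, beside 2, they were 8 with quantile normalization, 9 with median scaling, 25 with array weights, 0 with the slide as a block, in the 2-group fit and without the 3 high arrays, and 0 to 9 when each array was left out in turn. Day 15 against day 5 gave 2 with array weights and 0 to 13 when each array was left out, and day 30 against day 5 gave 1 in the 2-group fit. The F-test gave 1 with quantile normalization, median scaling or no filter, 17 with array weights and 0 to 2 when each array was left out.

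Some differences changed sign. At day 15 Dcn (0.01) was at −0.00076 with median scaling, −0.041 with the slide as a block, −0.098 with array weights and between −0.19 and 0.11 with each array left out in turn, Mgp between −0.28 and 0.16, and Serping1 at −0.14 with array weights and between −0.31 and 0.57. At day 30 Dcn was at −0.11 with array weights and without the 3 high arrays and between −0.11 and 0.39 with each array left out, and Serping1 at −0.35 and −0.50 in those fits and between −0.50 and 0.61. At day 5 Serping1 was at −0.54 without the 3 high arrays and between −0.063 and 0.84 with each array left out. In the day 5 fit without the 3 high arrays Mgp was at −0.083, Bgn at −0.019, C4a at −0.45, Slc22a8 at −0.06 and Slc6a13 at −0.0033, and in that of day 30 Ccn2 at −0.26. The medians of the small leucine-rich proteoglycans (−0.01), the complement and contact genes (−0.06) and the ion transporters (−0.07) also changed sign at day 5, and that of the complement and contact genes (−0.14) at day 30. P4ha1 at day 15 passed with array weights (0.63, adjusted p 0.027 in limma) and without Fe day 15 replicate 4 (0.72, adjusted p 0.029). The cause of these changes was not tested.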

Other observations

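Some genes whose values ran closest to those of the matrix genes have other known roles. Ifitm1, an interferon-induced membrane protein, stood at log2 differences from the control mean of 3.47 and 2.23 on Fe day 5 replicates 2 and 3, 2.85 on Fe day 30 replicate 3 and 1.62 on Fe day 15 replicate 4. Anxa2, a calcium-dependent membrane-binding protein, stood at 3.39, 2.03, 3.32 and 1.89 on the same arrays. Ptgds, the prostaglandin D synthase of leptomeninges, choroid plexus and oligodendrocytes, stood at 3.44, 2.25, 3.38 and 0.86. The control arrays lay between −0.18 and 0.26 for these 3 genes.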
